A study of Mus musculus with 18 samples.

Results

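The interferon-inducible GTPases examined here are 10 genes of the mouse: the guanylate-binding protein genes Gbp2, Gbp3, Gbp4, Gbp5, Gbp6 and Gbp7, and the immunity-related GTPase genes Irgm1, Irgm2, Igtp (the gene of Irgm3) and Iigp1. They were chosen by name from a table of 16545 genes, and Gbp2 was picked because its level was higher in Zbtb24-deficient than in control B cells on day 2 of culture. All values of that contrast are therefore given as a description, without a test. Their levels were measured by RNA-seq in 18 libraries of splenic B cells, from 3 control and 3 B-CKO mice per day. The libraries were taken before culture (day 0) and after 1 or 2 days with LPS, the bacterial lipopolysaccharide that activates B cells through TLR4. B-CKO mice are Zbtb24 loxp/loxp with a Cre that is active in B cells, which removes exon 2 of Zbtb24, the gene of a zinc finger transcription factor. The methods describe the controls as Cre-carrying littermates with intact Zbtb24, on a C57BL/6 background, while the labels of these samples name them only as controls. Both genotypes thus carry Cre by the methods, and the ages and sexes of these mice are not given in the sources used here. The B cells were enriched and then sorted, and each replicate is 1 mouse by the methods. The sources used here do not state whether a number marks the same mouse on each day.

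Guanylate-binding proteins (GBPs) are large GTPases that assemble on membranes of intracellular bacteria and on vacuoles that hold pathogens. Immunity-related GTPases are smaller, and their regulatory members Irgm1, Irgm2 and Igtp keep effector members such as Iigp1 away from the host's own membranes. Most genes of both families are induced by interferons through transcription factor complexes that bind the interferon-stimulated response element (ISRE) or the gamma-activated site (GAS). Gbp2 and Gbp5 proteins carry a C-terminal lipid anchor that is added by prenyltransferases.

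The genes lie in separate clusters. Gbp5, Gbp7, Gbp3 and Gbp2 follow each other within 141.1 kb of chromosome 3 (mm10, which is GRCm38), with Gbp2 (NCBI gene ID 14469) at chr3:142620663-142638008 on the plus strand. Gbp4 and Gbp6 lie on chromosome 5, Irgm1, Igtp and Irgm2 on chromosome 11 with the last pair next to each other, and Iigp1 lies apart. RefSeq sequences of the 250 bases before a start site were at hand for 7 of the 10 genes, at 8 start sites. Each of the 7 genes held at least 1 ISRE match, written as GAAANNGAAA on either strand, against 2.97% of 32817 mouse promoters of the same length. A GAS match, TTCNNNGAA, was in 4 of the 7, against 7.01% of promoters. The bases just before the first listed start site are printed to show where these matches lie in the 7 genes. The sequences run 5′ to 3′ along the gene's strand, end at the base before the start site, and capitals mark ISRE and GAS matches.
Gbp2 (chr3:142620553-142620662, plus strand): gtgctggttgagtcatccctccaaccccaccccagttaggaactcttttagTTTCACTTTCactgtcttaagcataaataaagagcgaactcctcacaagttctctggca
Gbp3 (chr3:142559934-142560043, plus strand): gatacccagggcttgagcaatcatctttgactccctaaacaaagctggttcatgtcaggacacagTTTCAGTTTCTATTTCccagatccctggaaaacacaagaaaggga
Gbp7 (chr3:142530226-142530335, plus strand): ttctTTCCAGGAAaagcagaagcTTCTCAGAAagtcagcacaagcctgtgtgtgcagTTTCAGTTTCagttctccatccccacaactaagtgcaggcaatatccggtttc
Gbp5 (chr3:142496684-142496933, plus strand): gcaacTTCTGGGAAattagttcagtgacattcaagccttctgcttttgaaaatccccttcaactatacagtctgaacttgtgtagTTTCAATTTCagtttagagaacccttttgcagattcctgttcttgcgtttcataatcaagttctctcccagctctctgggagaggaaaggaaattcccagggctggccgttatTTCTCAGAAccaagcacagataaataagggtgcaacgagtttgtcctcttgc
Irgm1 (chr11:48871421-48871530, minus strand): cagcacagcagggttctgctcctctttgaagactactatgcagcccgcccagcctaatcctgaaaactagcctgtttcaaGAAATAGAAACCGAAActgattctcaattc
Igtp (chr11:58199446-58199555, plus strand): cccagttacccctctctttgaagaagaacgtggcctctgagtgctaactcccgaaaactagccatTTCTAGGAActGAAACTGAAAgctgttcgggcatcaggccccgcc
Irgm2 (chr11:58214867-58214976, plus strand): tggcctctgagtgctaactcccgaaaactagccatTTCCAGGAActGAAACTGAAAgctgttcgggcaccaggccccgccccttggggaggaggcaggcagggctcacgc
The ISRE match of Gbp2 lay 50 to 59 bases before its start, and no GAS match was in its 250 bases. That of Gbp7 lay at 44 to 53 bases, beside 2 GAS matches. Gbp3 and Irgm1 each held 2 overlapping ISRE matches and no GAS match, and the second start site listed for Gbp3 held neither element. The ISRE match of Gbp5 lay further away, at 156 to 165 bases. Igtp and Irgm2 shared an unbroken run of 29 identical bases that covers the ISRE match. A match of letters is a description and not a measured binding site.

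Before culture, every gene but Iigp1 was expressed at a moderate level in both genotypes. FPKM, the deposited unit, is scaled by transcript length, so levels of different genes can be set side by side. In control cells on day 0 the highest mean level was that of Irgm1, at 24.3 FPKM ± 7.25 (SD, n = 3), followed by Gbp3 at 17.8 ± 4.4 and Gbp4 at 17.3 ± 1.29, and the range of Gbp3 overlapped with those of the other two, which did not overlap with each other. Gbp5 (10.2 ± 3.99), Igtp (9.44 ± 3.01) and Gbp2 (7.46 ± 1.11) formed the next overlapping tier. Gbp7 (4.83 ± 0.966), Irgm2 (3.51 ± 2.22) and Gbp6 (3.30 ± 0.0802) were lower. Iigp1 was between 0 and 0.19 FPKM in all 18 libraries, near the limit of the 2 decimals in the file, and is left out of the comparisons that follow except in the counts. Gbp6 shared 76.5% of its 150-base windows with transcripts of Gbp10 or Gm43302, so reads of these genes may have been split between them, and its values are uncertain. For Gbp7 the share was 8.93% (with Gm43802), for Igtp 0.854% (with Irgm2), and for Gbp4 0.0456% (with Gbp11), while Gbp2, Gbp3, Gbp5, Irgm1, Irgm2 and Iigp1 shared none.

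**Figure D1:**
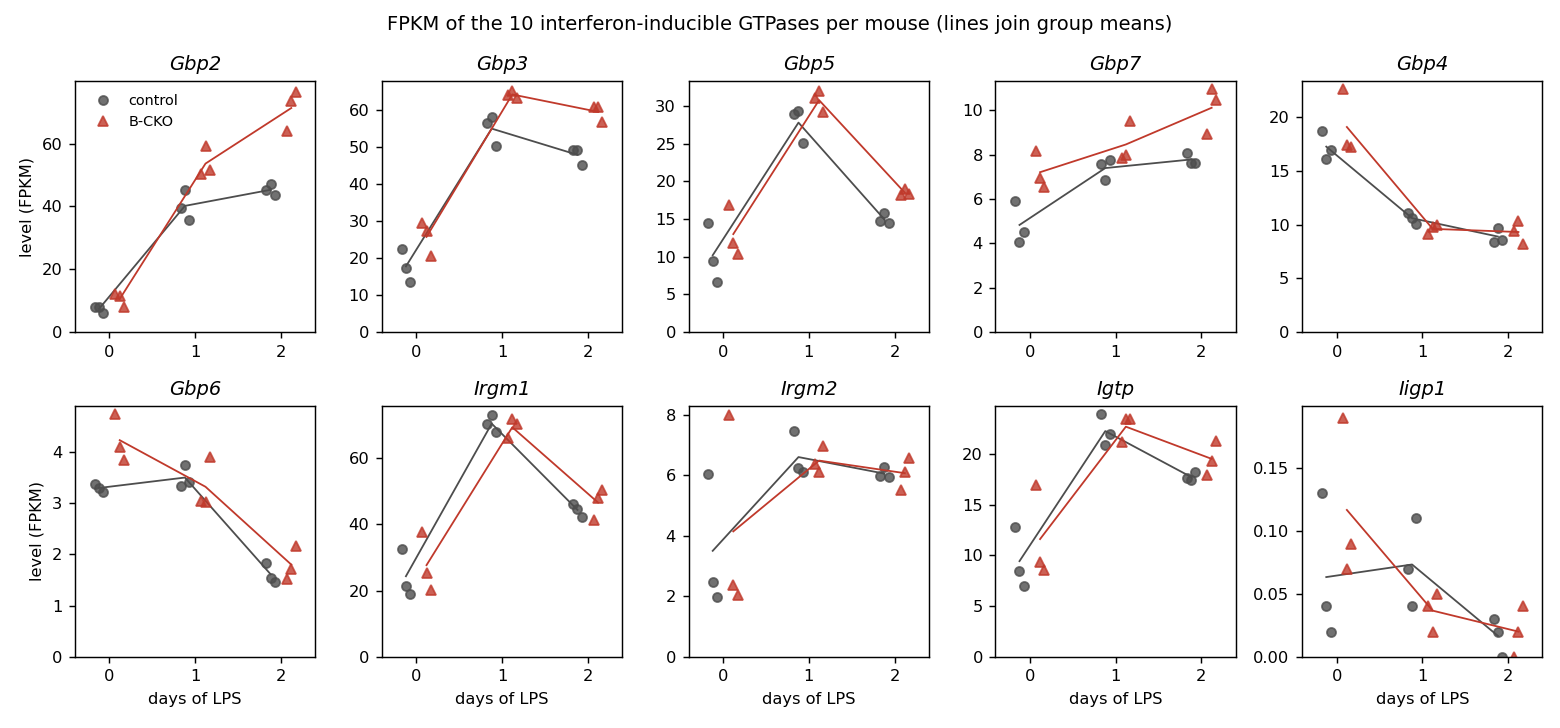
Level of each GTPase in FPKM (vertical axis, a separate scale from 0 for each gene) by days of LPS (horizontal axis) in 3 control mice (grey circles) and 3 B-CKO mice (red triangles) per day, with lines through the group means. Gbp2 and Gbp3 were high on both days of LPS, Gbp5, Irgm1 and Igtp peaked on day 1, Gbp4 was highest before culture, and on day 2 the B-CKO libraries lay above the control libraries for Gbp2, Gbp3, Gbp5 and Gbp7.

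Libraries of day 0 varied more than the others. The median SD between replicates, over genes of at least 1 FPKM, was 0.171 (control) and 0.159 (B-CKO) on the log2 scale on day 0, and between 0.0537 and 0.0849 on days 1 and 2. Depth is not stated in counts. Steps between the lowest values, whole in only 16 of 28 genes, allow a rough estimate at most. They put the day 0 libraries at 0.882 to 0.915 of the mean depth of all libraries and the later ones at 1.02 to 1.07. FPKM of the genes in the table summed to 453100 to 472700 per library on day 0, 515200 to 526500 on day 1 and 525800 to 563500 on day 2. Summed levels of 7 B cell markers were 4150 to 5475 FPKM on day 0 and 2439 to 2718 FPKM on day 2. On day 1 they were 2089 to 2166 FPKM in B-CKO and 2398 to 2583 FPKM in control cells, with no overlap. Those of 8 T cell markers were 5.52 to 10.8 FPKM on day 0 and at most 1.0 on day 2. On day 1 they were 1.46 to 2.0 FPKM in B-CKO and 0.97 to 1.39 FPKM in control cells, with no overlap and with each of the 8 under 1 FPKM. Those of 6 NK cell markers were 5.64 to 16.3 FPKM and then at most 1.42. Those of 8 myeloid markers were 3.17 to 10.01 FPKM on days 0 and 1, where the genotypes overlapped. On day 2 they were 3.52 to 4.95 FPKM in B-CKO and 5.33 to 6.89 FPKM in control cells, with no overlap. Itgam alone made up most of these day 2 sums, at 2.99 to 4.14 FPKM in B-CKO and 4.35 to 6.03 FPKM in control cells. The part of these differences in the genotype results was not tested. In these bulk samples, more RNA per cell and more cells of a type cannot be told apart.

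The targeted gene was lower in B-CKO cells. Zbtb24 was at 49.6, 49.6 and 37.1 FPKM in control cells on day 0 and at 14.3, 10.5 and 12.6 FPKM in B-CKO cells, with no overlap. It was lower in control cells on day 1, at 15.7 to 18.8 FPKM, against 10.4 to 11.7 FPKM in B-CKO cells (limma, a linear model that shares the spread across genes, adjusted p = 0.120 on day 0 and 0.0586 on day 1). Reads outside exon 2 still count toward these values.

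By day 1 of LPS the GTPase genes had moved in different directions. In control cells, Gbp2, Gbp3, Gbp5, Gbp7, Irgm1 and Igtp rose and Gbp4 fell, which makes 7 of 10 genes called (limma, adjusted p under 0.05) where 57.4% of all 15531 tested genes were called, 26.7% as higher and 30.7% as lower. The share of the 10 genes called was close to that over all genes. The median log2 change of the 10 genes was 1.03, against -0.02 over all genes tested. In B-CKO cells, Gbp2, Gbp3, Gbp5, Irgm1 and Igtp rose and Gbp4 fell, 6 of 10 genes where 59.8% of all genes were called, 27.5% as higher and 32.3% as lower.

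Gbp2 rose the most of the 10 genes. It was at 8.03, 8.16 and 6.18 FPKM in control cells on day 0 and at 39.7, 45.4 and 35.6 FPKM on day 1. The ranges were far apart, and the mean of day 1 was 5.39 times that of day 0 (log2 change 2.29 ± 0.133 SE, limma, adjusted p = 2.96e-05). In B-CKO cells the level went from 12.3, 11.4 and 8.03 FPKM to 50.2, 59.2 and 51.6 FPKM, a mean 5.08 times higher (log2 change 2.26 ± 0.155, limma, adjusted p = 4.03e-05).

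Gbp3 and Gbp5, its neighbours on chromosome 3, rose in both genotypes as well. Gbp3 in control cells was at 22.4, 17.4 and 13.6 FPKM on day 0 and at 56.6, 58.3 and 50.3 FPKM on day 1 (log2 change 1.60 ± 0.172, limma, adjusted p = 0.000359). In B-CKO cells it was at 29.4, 27.3 and 20.6 FPKM and then at 64.1, 65.4 and 63.5 FPKM (1.30 ± 0.128, limma, adjusted p = 0.000189). Neither genotype's days overlapped. Gbp5, a GBP known for promoting inflammasome assembly, went in control cells from 14.5, 9.48 and 6.62 FPKM to 28.9, 29.4 and 25.1 FPKM (1.42 ± 0.251, limma, adjusted p = 0.00325), and without replicate 2 the adjusted p was 0.0667. In B-CKO cells it went from 16.8, 11.9 and 10.3 FPKM to 31.1, 32.0 and 29.2 FPKM (1.21 ± 0.166, limma, adjusted p = 0.000886).

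Gbp7 changed less. In control cells it went from 5.92, 4.08 and 4.49 FPKM to 7.56, 6.87 and 7.75 FPKM, a log2 change of 0.54 ± 0.138 (limma, adjusted p = 0.0159). That call was lost without replicate 2 (adjusted p = 0.0929) or replicate 3 (0.122). In B-CKO cells, where day 0 levels were already 8.14, 6.94 and 6.54 FPKM, day 1 levels of 7.85, 8.0 and 9.52 FPKM overlapped them (0.20 ± 0.115, limma, adjusted p = 0.173).

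The chromosome 5 genes did not follow this course. Gbp4 fell in control cells from 18.7, 16.2 and 17.0 FPKM to 11.1, 10.7 and 10.1 FPKM, a log2 change of -0.65 ± 0.0809 (limma, adjusted p = 0.000668). In B-CKO cells it fell from 22.6, 17.4 and 17.2 FPKM to 9.11, 9.77 and 9.95 FPKM (-0.91 ± 0.117, limma, adjusted p = 0.000645). Gbp6, whose reads are shared, was at 3.22 to 3.38 FPKM on day 0 and 3.33 to 3.75 FPKM on day 1 in control cells (limma, adjusted p = 0.561), a difference of 0.07 on the log2 scale that became -0.07 with TPM, which is FPKM rescaled to the same sum in every library. In B-CKO cells its log2 change was -0.28 ± 0.123 (limma, adjusted p = 0.0966), and it was called as lower with TPM (adjusted p = 0.0250) or without replicate 3 (0.0472).

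Of the regulatory immunity-related GTPases, Irgm1, which is also known for its part in autophagy, was at 32.6, 21.3 and 19.1 FPKM in control cells on day 0 and rose to 70.2, 73.1 and 67.9 FPKM (log2 change 1.53 ± 0.189, limma, adjusted p = 0.000662). In B-CKO cells it rose from 37.7, 25.3 and 20.1 FPKM to 66.0, 71.7 and 70.2 FPKM (1.34 ± 0.211, limma, adjusted p = 0.00168). It was the most abundant of the 10 transcripts on day 1 in both genotypes. Igtp rose in control cells from 12.8, 8.47 and 7.03 FPKM to 23.9, 20.9 and 22.01 FPKM (1.19 ± 0.20, limma, adjusted p = 0.00259), with an adjusted p of 0.0512 without replicate 2. In B-CKO cells it rose from 16.9, 9.31 and 8.60 FPKM to 21.2, 23.5 and 23.4 FPKM (0.97 ± 0.237, limma, adjusted p = 0.0118), and the call was lost without replicate 2 (0.134) or replicate 3 (0.113).

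Irgm2 was uneven before culture. The libraries of number 1 held 6.06 FPKM (control) and 8.01 FPKM (B-CKO) on day 0, against 2.47 and 1.99 FPKM in the other control mice and 2.39 and 2.05 FPKM in the other B-CKO mice. The same libraries stood apart for Irf4, the gene of a lymphocyte transcription factor, at 118 and 119 FPKM against 254 to 266 FPKM in the other 4 libraries of day 0. Irgm2 on day 1 was at 6.10 to 7.47 FPKM in control and 6.13 to 6.96 FPKM in B-CKO cells. Its change was not called in control cells (0.86 ± 0.325, limma, adjusted p = 0.0629) or in B-CKO cells (0.72 ± 0.407, limma, adjusted p = 0.174). Without replicate 1 it was called in both (1.16, adjusted p = 0.00446, and 1.23, adjusted p = 0.00287), and in control cells also with the replicate number as a block in the fit (replicate block, adjusted p = 0.0324), with libraries rescaled by the median ratio of their genes (0.0362) and with genes of at least 1 FPKM (0.0348).

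**Figure D2:**
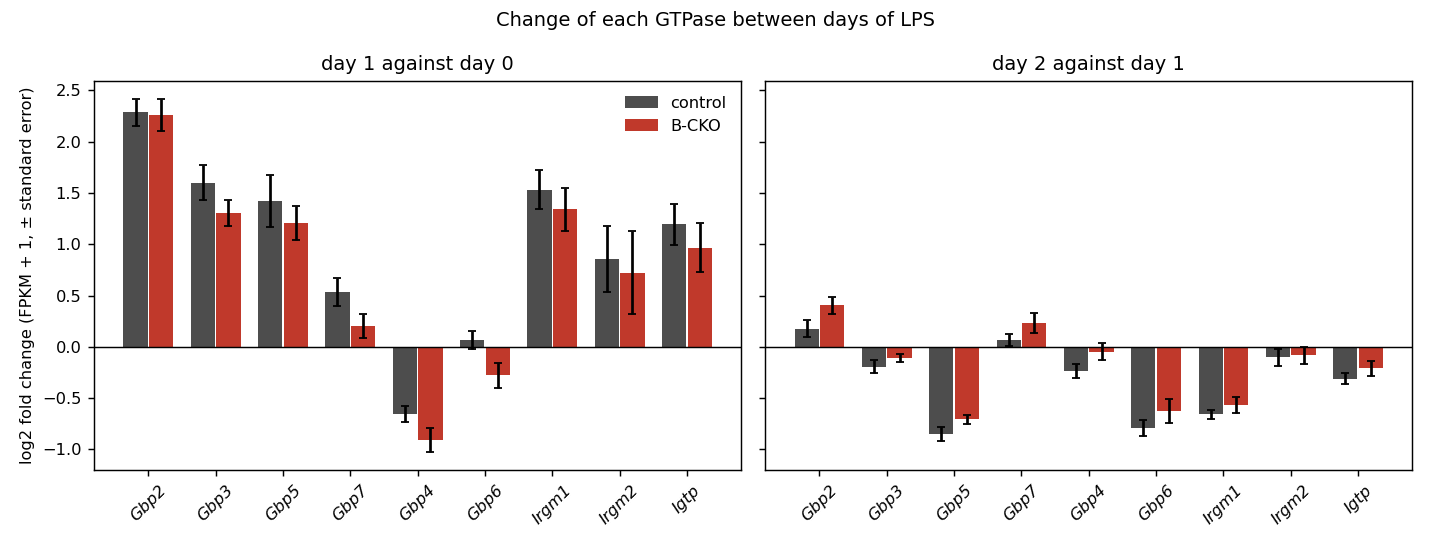
Log2 fold change of FPKM + 1 (vertical axis) of 9 GTPase genes (horizontal axis, grouped by chromosome) from day 0 to day 1 and from day 1 to day 2 of LPS, in 3 control mice (grey bars) and 3 B-CKO mice (red bars) per day. Bars start at 0 and whiskers are 1 standard error. Gbp2 stood highest at both steps in both genotypes, and between days 1 and 2 Gbp5, Gbp6 and Irgm1 fell in both.

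From day 1 to day 2, several of these transcripts fell again. Apart from Gbp2, whose level on day 2 chose it and which gets no test here, 6 of the other 9 genes were lower in control cells, where 44.9% of all genes were called and 24.8% of all genes as lower. In B-CKO cells 3 of the other 9 were lower, where 45.7% of all genes were called and 24.0% as lower. No other member was called as higher in either genotype. Gbp3 (limma, adjusted p = 0.0519) and Igtp (0.0507) lay just above the threshold in B-CKO cells. With TPM or with genes of at least 1 FPKM, more members were called in B-CKO cells. Gbp5 fell from 25.1 to 29.4 FPKM on day 1 to 14.7, 15.7 and 14.5 FPKM in control cells (log2 change -0.85 ± 0.0666, limma, adjusted p = 0.000135), and in B-CKO cells from 29.2 to 32.0 FPKM to 18.2, 19.0 and 18.3 FPKM (-0.70 ± 0.0448, limma, adjusted p = 4.23e-05).

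Irgm1 fell to 46.2, 44.6 and 42.3 FPKM in control cells (-0.65 ± 0.0436, limma, adjusted p = 7.98e-05) and to 41.2, 48.1 and 50.4 FPKM in B-CKO cells (-0.57 ± 0.0762, limma, adjusted p = 0.000999). Gbp6 fell to between 1.47 and 1.83 FPKM in control cells (-0.79 ± 0.0783) and between 1.52 and 2.16 FPKM in B-CKO cells (-0.63 ± 0.119), and the B-CKO call was lost without replicate 1 (limma, adjusted p = 0.0562). Igtp fell in control cells (-0.31 ± 0.0539, limma, adjusted p = 0.00352). In B-CKO cells Igtp was at -0.21 ± 0.0718 (limma, adjusted p = 0.0507), and it was called with the replicate block (0.0228), where same-numbered libraries of these days deviated together.

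Smaller changes of control cells depended on single libraries. Gbp3 went to 49.2, 49.4 and 45.3 FPKM (-0.19 ± 0.0628, limma, adjusted p = 0.0434), and that call was lost without replicate 1 (0.194), without replicate 2 (0.175) and with size factors by median ratio (0.107). Gbp4 went to 8.41, 9.73 and 8.54 FPKM (-0.23 ± 0.0671, limma, adjusted p = 0.0285), lost without replicate 1 (0.197) or replicate 3 (0.118). Gbp7 on day 2 was at 7.61 to 8.09 FPKM (0.07, limma, adjusted p = 0.439) and Irgm2 at 5.94 to 6.27 FPKM (-0.10, adjusted p = 0.359).

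Gbp2 stayed high on day 2, at 45.2, 47.0 and 43.7 FPKM in control cells and at 63.9, 73.7 and 76.4 FPKM in B-CKO cells. The mean of day 2 was 1.13 times that of day 1 in control and 1.33 times in B-CKO cells. Gbp2 made up a larger share of the summed FPKM of the 10 genes on each later day. In control cells it was 7.75% ± 1.27 of that sum on day 0, 16.4% ± 1.21 on day 1 and 23.3% ± 0.341 on day 2 (SD, n = 3), and in B-CKO cells 8.62% ± 1.03, 19.9% ± 1.12 and 29.3% ± 1.20. In B-CKO cells of day 2 Gbp2 was the most abundant of the 10, above Gbp3 and Irgm1 with no overlap, while in control cells Gbp3, Gbp2 and Irgm1 overlapped from 1 to the next.

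Between genotypes, the mean levels of the 4 genes of chromosome 3 were higher in B-CKO cells on each day, and Gbp2, Gbp3 and Gbp5 overlapped on day 0. On the log2 scale the means of the other members differed less. The median log2 difference of Gbp2, Gbp3, Gbp5 and Gbp7 was 0.47 on day 0, 0.20 on day 1 and 0.32 on day 2. For Irgm1, Irgm2 and Igtp it was 0.17, -0.02 and 0.06, and for Gbp4 and Gbp6 0.20, -0.10 and 0.08. Over all genes tested the medians were -0.00146, -0.00464 and -0.00554. Groups of genes by chromosome were formed with these values in view, and none of the genes passed the test on day 0 or day 1. The day 2 median of chromosome 3 includes Gbp2, which was chosen by its value on that day. Without Gbp2, the day 2 differences were 0.31 for Gbp3, 0.29 for Gbp5 and 0.34 for Gbp7. The contrast between chromosomes is a description and was not tested.

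**Figure D3:**
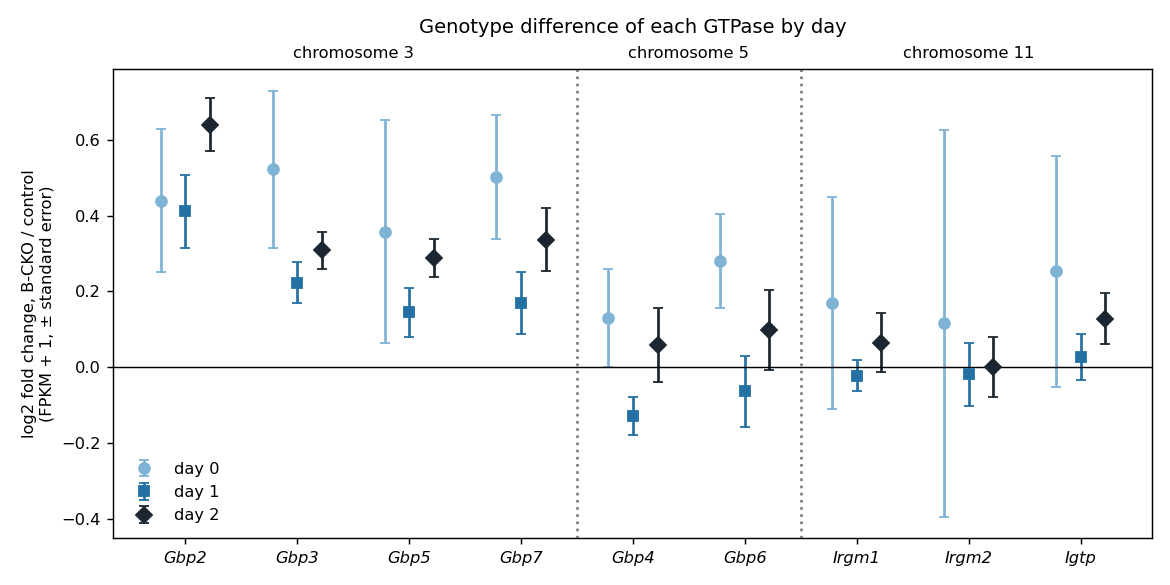
Log2 fold change of FPKM + 1 in B-CKO over control cells (vertical axis) of 9 GTPase genes (horizontal axis, grouped by chromosome) on day 0 (light circles), day 1 (blue squares) and day 2 (black diamonds), each from 3 mice per genotype, with whiskers of 1 standard error. All 12 values of the chromosome 3 genes lie above 0, and the largest is that of Gbp2 on day 2, at 0.64, the contrast that chose it.

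On day 0, before any LPS, all 10 genes had a mean difference above 0, where 47.9% of all 15641 genes did, and none was called (limma, adjusted p = 1 for each), where 0% of all genes were called. Without B-CKO replicate 1, Irgm1, Irgm2 and Igtp turned below 0 (-0.07, -0.38 and -0.03), and Irgm2 also did without control replicate 2 or 3. At an unadjusted p under 0.05 were 313 genes (2.0%), Gbp3 and Gbp7 among the 10. Gbp7 was at 8.14, 6.94 and 6.54 FPKM in B-CKO and at 5.92, 4.08 and 4.49 FPKM in control cells, with no overlap (log2 difference 0.50 ± 0.163). Gbp6, at 3.85 to 4.74 against 3.22 to 3.38 FPKM, did not overlap either (0.28 ± 0.123). These 2 of 10 genes stand beside 1.92% of all genes with every B-CKO library above every control library.

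Gbp2 (8.03 to 12.3 against 6.18 to 8.16 FPKM, log2 difference 0.44 ± 0.188) and Gbp3 (20.6 to 29.4 against 13.6 to 22.4 FPKM, 0.52 ± 0.208) overlapped on day 0. Same-numbered libraries of the genotypes deviated together on this day. Within them the B-CKO library was above the control library of its number in 3 of 3 pairs for 9 of the 10 genes and in 2 of 3 pairs for Irgm2. For Gbp2 the ratios were 1.53, 1.39 and 1.30, for Gbp3 1.31, 1.57 and 1.51, and for Gbp7 1.38, 1.70 and 1.46. With the replicate block the errors were smaller (Gbp3 0.52 ± 0.0663, Gbp2 0.44 ± 0.0751), and still no gene of the 10 was called (limma, adjusted p = 0.714 for Gbp3 and 0.770 for Gbp2). At an unadjusted p under 0.05 in this fit were 891 genes (5.7%), 8 of the 10 among them (all but Gbp4 and Irgm2). Leaving out both libraries of number 1, an alternative chosen after seeing the data, called none and gave 0.38 for Gbp2, 0.59 for Gbp3 and 0.55 for Gbp7.

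On day 1, Gbp2 was at 50.2, 59.2 and 51.6 FPKM in B-CKO cells and at 39.7, 45.4 and 35.6 FPKM in control cells, and each B-CKO library was above each control library. The mean was 1.34 times higher, with a log2 difference of 0.41 ± 0.0968 (95% interval 0.18 to 0.64, limma, adjusted p = 0.131). Gbp3, at 64.1, 65.4 and 63.5 against 56.6, 58.3 and 50.3 FPKM, did not overlap either (0.22 ± 0.0538, limma, adjusted p = 0.134). None of the 10 genes was called on day 1, where 0.0993% of all 15104 genes were called. An unadjusted p under 0.05 was found for 16.3% of all genes and for Gbp2, Gbp3 and Gbp4 of the 10. When only the 9711 genes of at least 1 FPKM were tested, 388 genes (4.0%) were called, Gbp2 (adjusted p = 0.0312) and Gbp3 (0.0443) among them, and these were the only members. Over all alternatives the adjusted p ran from 0.0312 to 0.312 for Gbp2 and from 0.0443 to 0.314 for Gbp3.

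Gbp7 was the third gene with no overlap, at 7.85 to 9.52 against 6.87 to 7.75 FPKM (0.17 ± 0.0809, limma, adjusted p = 0.360). That makes 3 of 10 genes where 8.43% of all genes had B-CKO above control. Gbp4 lay the other way, at 9.11 to 9.95 against 10.1 to 11.1 FPKM (-0.13 ± 0.0511, limma, adjusted p = 0.282), 1 of 10 where 11.7% of all genes had B-CKO below control. Gbp5 overlapped (29.2 to 32.0 against 25.1 to 29.4 FPKM, 0.14 ± 0.0645, limma, adjusted p = 0.334). Irgm1, Irgm2 and Igtp overlapped and differed by -0.02, -0.02 and 0.03, with 95% intervals of -0.12 to 0.07, -0.22 to 0.18 and -0.12 to 0.17.

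The rise from day 0 to day 1 itself was compared between genotypes. None of the 10 genes passed this interaction test, nor did any of 16182 genes (0%, with 467 genes or 2.89% at an unadjusted p under 0.05). For Gbp2 the difference in change was -0.03 on the log2 scale with a 95% interval of -0.52 to 0.46, for Gbp3 -0.30 (-0.81 to 0.22) and for Gbp7 -0.33 (-0.73 to 0.07). All 10 values were below 0, where 48.4% of all genes were above 0, and Gbp6 alone of the 10 had an unadjusted p under 0.05 (-0.34 ± 0.143). The sign of Gbp2, Irgm1, Irgm2 and Igtp turned when single libraries were left out.

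On day 2, whose contrast chose Gbp2, the other 9 genes also had a difference above 0, where 44.9% of all genes did. When single libraries were left out, Irgm2, Gbp4 and Iigp1 turned below 0, to -0.05, -0.02 and -0.0095 at the lowest. Irgm2 also did with TPM (-0.02) and with a pseudocount of 0.1 (-0.0002). Gbp2 was at 63.9 to 76.4 FPKM in B-CKO and 43.7 to 47.0 FPKM in control cells, a mean 1.57 times higher and a log2 difference of 0.64 ± 0.0703. Gbp3 was at 61.0, 60.9 and 56.9 against 49.2, 49.4 and 45.3 FPKM (0.31 ± 0.0494). Gbp5 was at 18.2, 19.0 and 18.3 against 14.7, 15.7 and 14.5 FPKM (0.29 ± 0.0498). Gbp7 was at 8.92, 10.97 and 10.4 against 8.09, 7.64 and 7.61 FPKM (0.34 ± 0.0833).

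In these 4 genes each B-CKO library of day 2 was above each control library. Gbp2 was chosen for it, which leaves 3 of the other 9 genes, where 4.89% of all genes had this order. The other 6 genes overlapped, with log2 differences of 0.13 for Igtp, 0.10 for Gbp6, 0.06 for Irgm1 and Gbp4, 0.0002 for Irgm2 and 0.005 for Iigp1.

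Gbp2b, which lies between Gbp3 and Gbp2 and is not among the 10 genes, had a similar course. It was at 0.02 to 0.14 FPKM in all 6 libraries of day 0, at 2.96, 3.75 and 2.84 FPKM in control and 3.89, 4.15 and 3.17 FPKM in B-CKO cells on day 1, and at 5.79, 6.67 and 4.64 against 8.90, 9.73 and 9.25 FPKM on day 2. It rose at both steps in both genotypes, by 1.94 and 0.67 on the log2 scale in control cells (limma, adjusted p = 2.00e-05 and 0.00648). In B-CKO cells it rose by 2.11 and 1.12 (limma, adjusted p = 8.21e-06 and 0.000117). Its genotype difference was 0.18 on day 1 (limma, adjusted p = 0.492) and 0.63 ± 0.116 on day 2, given without a test as part of the contrast that chose Gbp2.

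The 4 genes of at least 1 FPKM within 1 Mb of the cluster, Pdlim5, Kyat3, Gtf2b and Pkn2, differed between genotypes by -0.08 to 0.08 on day 0, -0.03 to 0.20 on day 1 and -0.02 to 0.08 on day 2. Of these, Gtf2b, a general transcription factor gene, was on day 1 higher in each B-CKO library (0.19 ± 0.0328, limma, adjusted p = 0.0827).

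**Figure D4:**
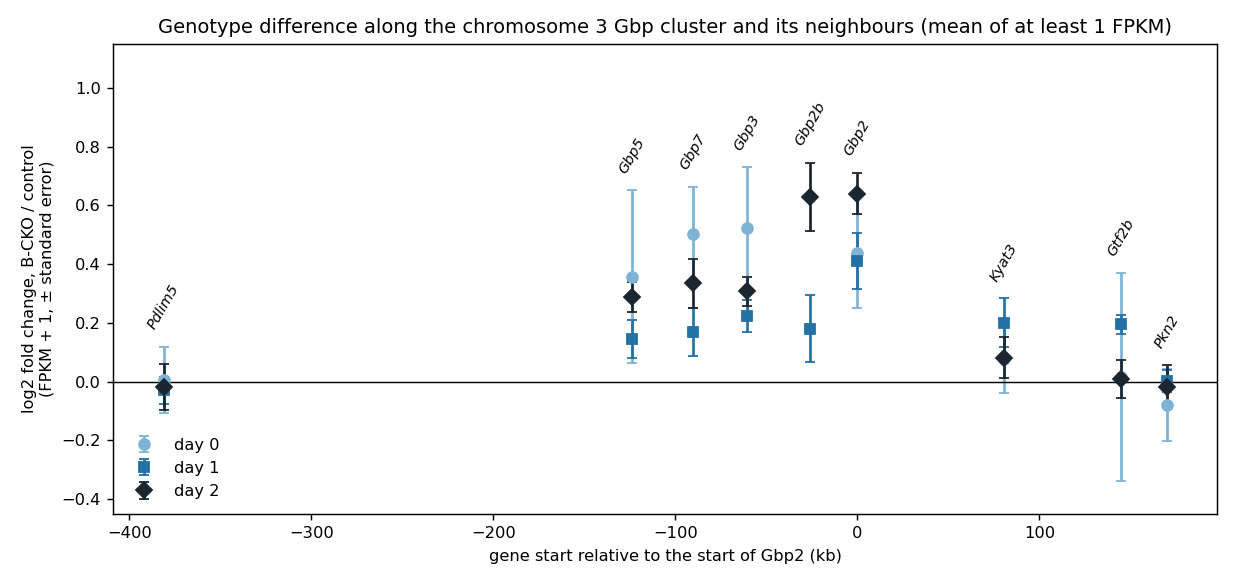
Log2 fold change of FPKM + 1 in B-CKO over control cells (vertical axis, whiskers of 1 standard error, 3 mice per genotype) of the Gbp genes of chromosome 3 and the expressed genes within 1 Mb, by distance of each gene's start from that of Gbp2 in kb (horizontal axis), on days 0, 1 and 2. Points are drawn where the mean of the day was at least 1 FPKM, which leaves out Gbp2b on day 0. The Gbp genes lie above 0 on each day drawn, and the flanking genes lie between -0.08 and 0.20.

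Genes whose levels follow Gbp2 most closely were found by the root mean square difference of log2(FPKM + 1), each gene centred on its own mean, over the 18 libraries and 9996 genes. The 5 nearest were Pim2 (0.21), Rpa3 (0.25), Cpd (0.25), Nudcd2 (0.25) and Cenpi (0.26). Pim2, the gene of a serine/threonine kinase, went from 20.5 to 97.3 to 136 FPKM in control means and from 24.7 to 140 to 192 FPKM in B-CKO means. Gbp2b ranked 30 and Gbp3 539, and the other members ranked from 1518 (Irgm1) to 8181 (Gbp4). The measure includes the size of each change. The libraries share the steps of culture, so closeness in this list is a description.

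The pathway above these genes moved in mixed directions in control cells from day 0 to day 1, to be read against 26.7% of all genes called higher and 30.7% lower. Of 5 interferon ligand and receptor genes tested, none was higher and 4 were lower, including the receptor genes Ifngr1 (-1.39 ± 0.0892) and Ifnar1 (-1.20 ± 0.125). Ifng itself fell by 0.37 (limma, adjusted p = 0.0303), from 0.17 to 0.63 FPKM to at most 0.09 FPKM in control cells, and Ifnb1 was listed at 0 in 17 libraries and at 0.07 FPKM in 1. Of 7 JAK-STAT genes, 3 were higher and 4 lower. Stat3 rose by 0.33 and Irf9, the gene of a subunit of the ISRE-binding complex, by 0.25, while the kinase genes Jak2 (-1.85), Tyk2 (-0.70) and Jak1 (-0.54) fell. Of 9 interferon regulatory transcription factor genes, Irf7 rose by 1.05 ± 0.109, and Irf1 (-1.90 ± 0.109), Irf4 (-1.64 ± 0.311) and Irf2 (-1.35 ± 0.105) fell. Irf1, a main activator of GBP genes, was lower on the day when Gbp2 and Gbp3 were higher.

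Among 7 genes listed as inhibitors of interferon signalling, Isg15 (3.76 ± 0.103), Usp18 (2.68 ± 0.276) and Ptpn2 (0.43) rose, while Socs3 (-1.34) and Pias1 (-0.54) fell. Usp18 is the gene of the Isg15 protease that also restrains the type I receptor. Isg15 stands here by the choice of the list, and whether it inhibits this signalling in these cells was not tested. Of 15 other interferon-inducible GTPase genes, 6 were higher, led by Ifi47 (2.43 ± 0.223), Gbp2b and Gm12250 (1.93 ± 0.224), and 4 were lower, among them Gbp8 (-1.02), Gvin1 (-0.81) and F830016B08Rik (-0.81).

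Of the partners of the proteins, the prenyltransferase genes Pggt1b (0.97 ± 0.101), Fntb (0.86) and Fnta (0.73) rose, 3 of 5 prenylation genes, with none called as lower. Icmt (12.7 to 18.2 FPKM, then 12.2 to 12.6) and Rce1 (21.4 to 23.5, then 19.9 to 20.1) were lower on day 1 with no overlap, though not called. In B-CKO cells 3 of the 5 were called as higher and 2 as lower, where 27.5% and 32.3% of all genes were. Of 10 genes of the autophagy conjugation machinery, which is known to direct GBPs and IRGs to vacuoles, Atg5 (0.32) rose and 5 fell, with Map1lc3a (-3.28 ± 0.136), Map1lc3b (-1.43) and Atg16l1 (-0.78) the largest. Of 6 inflammasome genes, Pycard (1.11 ± 0.135), the gene of the adaptor ASC, and Casp4 (0.64) rose, and Gsdmd (-1.15) and Aim2 (-0.67) fell.

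Between genotypes, no gene of these 8 lists was called on day 0, and Pycard alone was called on day 1. Pycard was at 13.5, 14.9 and 14.9 FPKM in B-CKO and at 19.6, 20.5 and 21.0 FPKM in control cells (log2 difference -0.47 ± 0.0479, limma, adjusted p = 0.0413). It was below control with no overlap on day 0 as well, at 5.07 to 6.82 against 7.29 to 10.8 FPKM, and on day 2, at 21.3 to 26.7 against 30.5 to 33.3 FPKM. Irf7, named here after its values were seen, was at 28.9 to 32.9 FPKM in B-CKO and 43.1 to 48.6 FPKM in control cells on day 1 (-0.55 ± 0.0628, limma, adjusted p = 0.0554). In 5 of the 7 B cell markers, 5 of the 9 interferon regulatory transcription factor genes and 5 of the 15 other GTPase genes, all B-CKO libraries lay below all control libraries on day 1, where 11.7% of all genes did. The same held for 3 of 10 autophagy genes, 2 of 7 JAK-STAT genes, 2 of 7 inhibitor genes, 2 of 6 inflammasome genes, 1 of 5 prenylation genes and 0 of 6 ligand and receptor genes. Of the 10 GTPase genes, Gbp4 lay below, and Gbp2, Gbp3 and Gbp7 lay above.

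Of 6 dendritic cell markers only Flt3 reached 1 FPKM. Flt3 was higher in B-CKO cells with no overlap on day 1 (8.72 to 9.49 against 6.39 to 6.77 FPKM) and day 2 (31.4 to 31.9 against 23.2 to 28.7 FPKM), as was Gbp2. On day 0 it overlapped (1.12 to 2.85 against 0.94 to 1.9 FPKM), as Gbp2 did. The part of Flt3 in the result was not tested.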

How the data were processed

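RNA of splenic B cells was sequenced in 18 libraries, 3 mice per genotype on each of 3 days. Per the study's methods, bowtie2 aligned the reads to mm10, and RSEM and Cufflinks gave transcript abundances, which the authors deposited as FPKM (scaled by transcript length and library size) with 2 decimals. The submitters' processing notes also name BWA and DESeq2, and versions and annotation are not given in the sources used here. Of 16545 gene IDs, 16512 were matched to RefSeq symbols (GRCm38.p6). Genes above 0 in any compared library were tested as log2(FPKM + 1), with fold changes on that scale, which understates changes of low genes. limma 3.58.1 (R 4.3.3; lmFit, eBayes with trend) was used, because FPKM are not counts. P-values were adjusted by Benjamini-Hochberg over all genes (threshold 0.05). Genotypes were compared within a day and days within a genotype (6 libraries each), and the day 0 to day 1 change between genotypes over 12. The exact permutation test of 3 against 3 cannot go below 0.1. Fits were tested on simulated data, and no outcome of that is given here. Alternatives were a pseudocount of 0.1, genes of at least 1 FPKM, TPM, median-ratio size factors, the replicate block and leaving out libraries.

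Same-numbered libraries deviated together (Pearson correlation of deviations from group means) between genotypes on day 0 (r = 0.854, 0.468 and 0.789) and between days 1 and 2 of B-CKO (0.126, 0.183 and 0.117), where the numbers were taken to pair the samples. In the other comparisons at least 1 pair was at 0.1 or lower. The labels do not state that a number marks a shared animal or day.

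Members and lists were chosen with earlier results of these data known. Named are all members, list genes called between genotypes on day 0 or 1, per list and direction up to 3 with the largest called change without overlap from day 0 to day 1 in control, and the 5 genes closest to Gbp2. In steps between values near 0, 16 of 28 genes were whole multiples within 0.2 of a step, and no reads were recovered from them. Promoter sequences are from RefSeq (GRCm38.p6), and no sequence of Gbp4, Gbp6 or Iigp1 is shown. Values of some genes, 1 of which differed between the genotypes on every day, are not reported here.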

Additional observations from a re-analysis of the deposited data

How the results depend on the processing

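The number of members called kept its side of 1.5 times the reported number in 62 of 66 alternative fits of the tested comparisons. With genes of at least 1 FPKM, 2 members (Gbp2 and Gbp3) were called between genotypes on day 1 in place of 0. Between days 1 and 2 of B-CKO cells, 5 members other than Gbp2 were called with genes of at least 1 FPKM and 5 with TPM, in place of 3. Leaving out 1 replicate number at a time, 4 to 8 members were called from day 0 to day 1 in control cells, with 4 (Gbp2, Gbp3, Gbp4 and Irgm1) without replicate 2. The replicate block called 0 members between genotypes on day 0, and it moved the call of Irgm2 from day 0 to day 1 in control cells (adjusted p = 0.0324, limma) and of Igtp from day 1 to day 2 in B-CKO cells (0.0228) and of no other member. In tested comparisons, signs turned only for differences that were not called. Gbp6 in control cells from day 0 to day 1 was at -0.072 with TPM. Leaving out single libraries, the genotype difference on day 0 ran from -0.069 to 0.39 for Irgm1, -0.38 to 0.49 for Irgm2 and -0.031 to 0.47 for Igtp, and on day 1 from -0.048 to 0.0115 for Irgm1, -0.067 to 0.060 for Irgm2 and -0.0165 to 0.078 for Igtp. Without both libraries of number 1, Irgm2 on day 0 was at -0.0025. Gbp4 from day 1 to day 2 in B-CKO cells ran from -0.11 to 0.060. The genotype difference in the day 0 to day 1 change ran from -0.17 to 0.13 for Gbp2, -0.42 to 0.081 for Irgm1, -0.47 to 0.37 for Irgm2 and -0.41 to 0.10 for Igtp. In each of these the cause was not tested. Over all genes, 15 were called between genotypes on day 1, against 46 with a pseudocount of 0.1, 388 with genes of at least 1 FPKM and 5 with the replicate block. On day 0, 0 genes were called, and 2 with genes of at least 1 FPKM. For single members in tested comparisons, 532 of 578 alternative values kept direction and call, 27 kept direction only and 19 turned. In the untested genotype contrast of day 2, Gbp4 turned to -0.02 without B-CKO replicate 2, and Irgm2 ran from -0.05 to 0.06. Depth in reads is unknown, the values have 2 decimals, and Iigp1 is too low for a comparison.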
